A study of Mus musculus with 23 samples.

Results

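The 10 genes described here are known markers of liver macrophages. They were found by symbol in a count table of 27179 genes, and all 10 passed a mean of 1 CPM, as did 12316 genes in all. CPM are counts scaled to equal library totals, corrected between libraries by TMM. *Clec4f*, *Vsig4*, *Timd4*, *Marco* and *Cd5l* make up the 5 genes of resident Kupffer cells. *Adgre1*, *C1qa* and *Cd68* are the 3 genes of macrophages in general. *Gpnmb* and *Trem2* are the 2 genes of lipid-associated macrophages. RNA of whole liver tissue, taken free of visible tumors, was sequenced from 15 female mice that all carried Alb-Cre, 2 floxed *Trp53* alleles (flx/flx) and at least 1 floxed *Icmt* allele. The 6 Ctrl mice had wild type *Braf* and Icmt flx/+. The 6 ABpIF/+ mice carried BrafCA/+, which gives BRAF V600E after recombination, with Icmt flx/+, and the 3 ABpIF/F mice carried BrafCA/+ with Icmt flx/flx. The sample labels write the *Braf* genotype of both mutant groups as +/+, where the series' design text gives BrafCA/+. ABpIF/F mice were rarely born, were killed at different ages and had tumors elsewhere in the liver. The labels give no ages of the sequenced mice. Cre driven by the albumin promoter acts in hepatocytes, so macrophages are not the cells the alleles were aimed at.

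Kupffer cells are the macrophages that live in the liver sinusoids, where they take up blood cells, microbes, complement-coated particles and modified lipoproteins. They are seeded before birth, are kept by growth factors and ligands from neighbouring endothelial cells, stellate cells and hepatocytes, and can be replaced by blood monocytes when they are lost. Lipid-associated macrophages gather in fatty or injured liver and in tumors, often come from monocytes, and are known by lipid receptors and lysosomal proteins such as TREM2 and GPNMB. In whole tissue the genes of both states are read together with those of every other cell.

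The depth was 24742910 to 32262649 counted reads in a mouse. The targeted gene *Icmt* stood at 30.8 ± 2.72 CPM (mean ± SD, n = 6) in Ctrl, 32.7 ± 3.49 (n = 6) in ABpIF/+ and 15.8 ± 0.711 (n = 3) in ABpIF/F mice. Ctrl mouse BG3 has the strain label of all ABpIF/+ and ABpIF/F mice, and the other 5 Ctrl mice have another, so that strain label and *Braf* genotype can be told apart only through BG3. A score of 13 circadian clock genes was between −2.11 and −1.11 in ABpIF/F mice, −1.53 in Ctrl mouse malpa387 and between 0.30 and 0.85 in all other mice. The ABpIF/F mice BG38 and BG90 stood apart in blood cell genes. The summed level of 7 neutrophil genes was 95.3 CPM in BG38 and 33.1 CPM in BG90, against 4.96 CPM in BG183 and at most 9.47 CPM in the other groups.

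The first comparison, ABpIF/+ vs Ctrl, shows how these genes differ with activated *Braf* while 1 *Icmt* allele remains. The resident genes *Clec4f* and *Timd4* and the general genes *Adgre1* and *C1qa* fell, and *Gpnmb* and *Trem2* rose. Calls required an adjusted p under 0.01 with at least a 2-fold difference either way, by edgeR's quasi-likelihood F-test with Benjamini-Hochberg adjustment over all 27179 genes. Of the 10 genes, 6 were called, 4 lower and 2 higher, where 10.0% of all genes were called, 5.35% lower and 4.69% higher. The median log2 fold change of the 10 genes was −0.89, against 0.017 over all genes that passed 1 CPM. A smaller number of cells and less RNA per cell cannot be told apart in whole tissue. The plot of CPM by mouse shows every value.

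**Figure D1:**
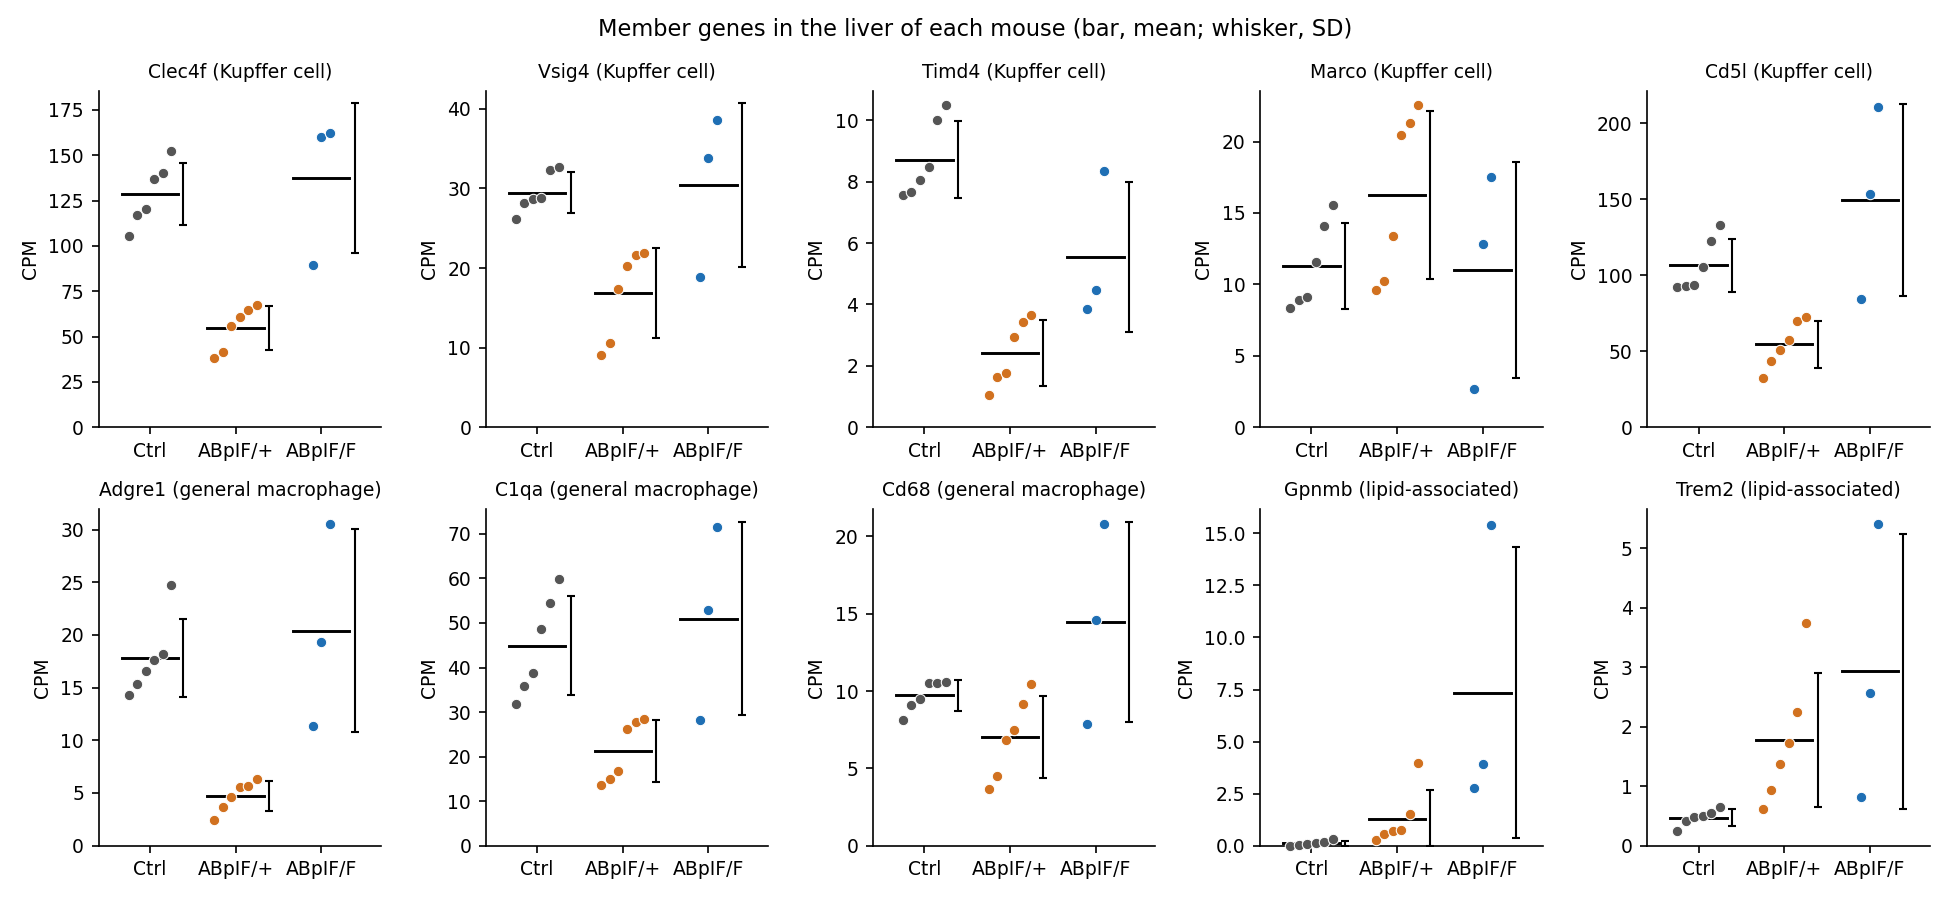
CPM (counts scaled to equal library totals with TMM, linear axes from 0) of the 10 macrophage genes in 6 Ctrl, 6 ABpIF/+ and 3 ABpIF/F livers, with 1 point per mouse, a bar at the group mean and a whisker of 1 SD that stops at 0. The ABpIF/+ points of Clec4f, Timd4, Adgre1 and C1qa all lie below the Ctrl points, those of Marco overlap them, and the 3 ABpIF/F points of Gpnmb and Trem2 lie above all Ctrl points.

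*Clec4f* encodes a sugar-binding lectin found on Kupffer cells and is the most cell-restricted of the resident markers in the mouse. Its level ranged over 106, 129 and 152 CPM (lowest, median, highest) in Ctrl and over 38.4, 58.2 and 67.4 CPM in ABpIF/+ mice. It was 89.5 CPM in BG183, 163 in BG38 and 159.9 in BG90 of the ABpIF/F group. No ABpIF/+ mouse reached the lowest Ctrl or ABpIF/F mouse, and the Ctrl and ABpIF/F ranges overlapped. The log2 fold change of *Clec4f* in ABpIF/+ vs Ctrl was −1.23 (SE 0.16, 2.35-fold lower, edgeR adjusted p = 3.81e-06).

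*Timd4* encodes TIM-4, a receptor for phosphatidylserine on dying cells that marks long-lived, embryo-derived Kupffer cells. It ranged over 7.57, 8.27 and 10.5 CPM in Ctrl and over 1.04, 2.35 and 3.65 CPM in ABpIF/+ mice. In ABpIF/F mice it was 4.47 CPM in BG183, 3.85 in BG38 and 8.36 in BG90. All ABpIF/+ mice lay below all other mice, and 2 of the 3 ABpIF/F mice lay below the lowest Ctrl mouse. In ABpIF/+ vs Ctrl its log2 fold change was −1.85 (SE 0.26, 3.60-fold lower, edgeR adjusted p = 1.24e-05).

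*Vsig4* encodes CRIg, the complement receptor with which Kupffer cells catch opsonized particles from the blood, and *Cd5l* encodes a secreted protein (AIM) that macrophages release into plasma. *Vsig4* ranged over 26.1, 28.7 and 32.7 CPM in Ctrl and over 9.11, 18.8 and 21.9 CPM in ABpIF/+ mice. *Cd5l* ranged over 91.9, 99.5 and 133 CPM in Ctrl and over 32.3, 54.2 and 72.7 CPM in ABpIF/+ mice. For neither gene did the groups overlap, but neither difference reached 2-fold, so neither was called. The log2 fold change in ABpIF/+ vs Ctrl was −0.81 for *Vsig4* (SE 0.21, edgeR adjusted p = 0.00763) and −0.97 for *Cd5l* (SE 0.21, edgeR adjusted p = 0.00177). *Cd5l* passed the 2-fold limit when Ctrl malpa454, malpa458 or malpa462 or ABpIF/+ BG175, BG30 or BG88 was left out, reaching −1.07 without BG30.

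*Marco*, a scavenger receptor for bacteria and particles, did not follow the other resident genes. It ranged over 8.37, 10.3 and 15.6 CPM in Ctrl and over 9.63, 16.9 and 22.6 CPM in ABpIF/+ mice. BG30, BG31 and BG40 of the ABpIF/+ group lay above every Ctrl mouse, and BG175, BG55 and BG88 lay within the Ctrl range. BG31 and BG40 were also the ABpIF/+ mice with the lowest *Clec4f*, *Vsig4* and *Cd5l*. The log2 fold change of *Marco* in ABpIF/+ vs Ctrl was 0.53 (95% interval −0.27 to 1.33, edgeR adjusted p = 0.388), an interval that holds no difference but not a 2-fold fall.

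*Adgre1* encodes F4/80, the surface protein by which mouse macrophages are most often stained. It ranged over 14.3, 17.1 and 24.7 CPM in Ctrl and over 2.40, 5.08 and 6.30 CPM in ABpIF/+ mice, with no overlap. Its log2 fold change in ABpIF/+ vs Ctrl was −1.92 (SE 0.24, 3.77-fold lower, edgeR adjusted p = 9.07e-06). *C1qa*, which encodes a chain of the complement starter C1q made by macrophages, ranged over 31.8, 43.6 and 59.9 CPM in Ctrl and over 13.6, 21.5 and 28.4 CPM in ABpIF/+ mice, again with no overlap. Its log2 fold change was −1.08 (SE 0.25, 2.11-fold lower, edgeR adjusted p = 0.00441). That call was lost without BG3, malpa387, malpa459, BG31 or BG40, with log2 fold changes from −1.05 to −0.98. The other C1q chains stood at 5.68 ± 2.15 CPM in ABpIF/+ and 12.2 ± 2.03 in Ctrl mice for *C1qb*, which was called lower (log2 fold change −1.10, edgeR adjusted p = 0.00284), and at 23.5 ± 6.79 and 36.4 ± 8.18 CPM for *C1qc*, which was not called (−0.63, edgeR adjusted p = 0.0467).

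*Cd68* encodes a glycoprotein of lysosomes and endosomes that follows phagocytic content rather than one macrophage state. It ranged over 8.16, 10.0 and 10.6 CPM in Ctrl and over 3.68, 7.17 and 10.5 CPM in ABpIF/+ mice. BG55 and BG88 lay within the Ctrl range and the other 4 ABpIF/+ mice below it. Its log2 fold change in ABpIF/+ vs Ctrl was −0.47 (95% interval −0.97 to 0.03, edgeR adjusted p = 0.184).

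*Gpnmb* encodes a transmembrane glycoprotein of lysosomes and the cell surface that macrophages make when loaded with lipid or debris. It was close to absent in Ctrl livers, with 0 to 8 counts per mouse and 0, 0.103 and 0.328 CPM (lowest, median, highest). ABpIF/+ mice held 9 to 105 counts, which gave 0.288, 0.731 and 3.96 CPM. BG175 of the ABpIF/+ group lay below Ctrl mouse BG3, and the other 5 ABpIF/+ mice lay above all Ctrl mice. The log2 fold change in ABpIF/+ vs Ctrl was 3.40 (SE 0.82, edgeR adjusted p = 0.00599). Its 95% interval reached from 1.63 to 5.16, and the value moved to 2.65 without BG55, the mouse with the most *Gpnmb* in its group. The call was lost without malpa387, malpa454, malpa458, malpa459, malpa462 or BG30, with log2 fold changes from 3.15 to 3.54 and edgeR adjusted p values from 0.0125 to 0.0174.

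*Trem2* encodes a lipid-sensing receptor that signals through the adaptor TYROBP (DAP12). It ranged over 0.249, 0.489 and 0.656 CPM in Ctrl, from 8 to 17 counts, and over 0.619, 1.55 and 3.73 CPM in ABpIF/+ mice, from 16 to 99 counts. Only BG40 of the ABpIF/+ group lay within the Ctrl range. In ABpIF/+ vs Ctrl the log2 fold change of *Trem2* was 1.91 (SE 0.45, 3.75-fold higher, edgeR adjusted p = 0.00281). The mouse BG55 had the highest *Gpnmb* and *Trem2* of its group, while its *Clec4f* of 55.6 CPM lay in the middle of the group.

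With the strain label as a covariate, so that BG3 alone ties the groups, 1357 of all 27179 genes were called in ABpIF/+ vs Ctrl in place of 2729. Of the 10 genes 2 were called. These were *Clec4f* (log2 fold change −1.48, edgeR adjusted p = 0.000846) and *Timd4* (−1.81, edgeR adjusted p = 0.00991). *Adgre1* was then at −1.70 (edgeR adjusted p = 0.0144), *C1qa* at −1.49 (0.0374 by the same test), *Trem2* at 1.43 (0.452) and *Gpnmb* at 1.97 (0.597). BG3 had the highest *Gpnmb* and *Trem2* of the Ctrl mice.

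The second comparison, ABpIF/F vs Ctrl, shows the same genes with activated *Braf* after both *Icmt* alleles were floxed. *Gpnmb* and *Trem2* rose, and none of the 8 resident and general genes was called. The 2 genes called, both higher, stand against 6.93% of all genes called in this comparison and 4.55% called higher. For the count of 0 genes called lower, edgeR gave 1 gene lower at an unadjusted p under 0.05 (*Timd4*) and DESeq2 called 0, where 2.38% of all genes were called lower by edgeR. Both comparisons with Ctrl share the same 6 Ctrl mice.

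*Gpnmb* was at 3.92 CPM in BG183, 15.4 in BG38 and 2.75 in BG90, from 77 to 556 counts, so that all 3 ABpIF/F mice lay above every Ctrl mouse. Its log2 fold change in ABpIF/F vs Ctrl was 5.90 (SE 0.87, 95% interval 4.05 to 7.75, edgeR adjusted p = 0.000197). It moved to 4.75 without BG38 and to 6.41 without BG3, and was called both times. *Trem2* was at 0.816 CPM in BG183, 5.40 in BG38 and 2.57 in BG90, also above every Ctrl mouse, although BG183 exceeded the highest of them (0.656 CPM in BG3) by little. Its log2 fold change was 2.63 (SE 0.50, 6.20-fold higher, edgeR adjusted p = 0.000715) and dropped to 1.83 without BG38, where it was no longer called (edgeR adjusted p = 0.0246). The 2 genes did not keep one order over these mice, since BG183 had more *Gpnmb* than BG90 and less *Trem2*.

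Of the resident genes, *Clec4f* had a log2 fold change of 0.09 in ABpIF/F vs Ctrl (95% interval −0.31 to 0.50) and *Vsig4* of 0.05 (−0.49 to 0.58), so that a 2-fold change lay outside both intervals. *Marco* was at −0.03 with an interval of −1.01 to 0.94, *Adgre1* at 0.20 (−0.39 to 0.79) and *C1qa* at 0.18 (−0.46 to 0.83). *Cd5l* was at 0.49 (−0.04 to 1.02), with 84.6 CPM in BG183, 210.4 in BG38 and 154 in BG90, and *Cd68* was at 0.57 (−0.02 to 1.16), with 7.90, 20.8 and 14.6 CPM in the same mice. *Timd4* had the lowest value of the 8 at −0.65 (−1.30 to −0.00383, edgeR adjusted p = 0.186). BG183 was the lowest of the 3 ABpIF/F mice in each of the 8 genes except *Timd4*, for which BG38 was lowest. In BG183 *Marco* was at 2.68 CPM, below every other mouse of the study.

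With the strain label as a covariate *Gpnmb* was at 4.47 (edgeR adjusted p = 0.128) and *Trem2* at 2.16 (edgeR adjusted p = 0.221) in ABpIF/F vs Ctrl. When the clock gene score was added instead, they were at 7.78 (edgeR adjusted p = 0.0345) and 2.21 (edgeR adjusted p = 0.252). None of the 10 genes was called in this comparison under either covariate. Of all 27179 genes, 1148 were called with the strain label and 602 with the clock score, in place of 1883.

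**Figure D2:**
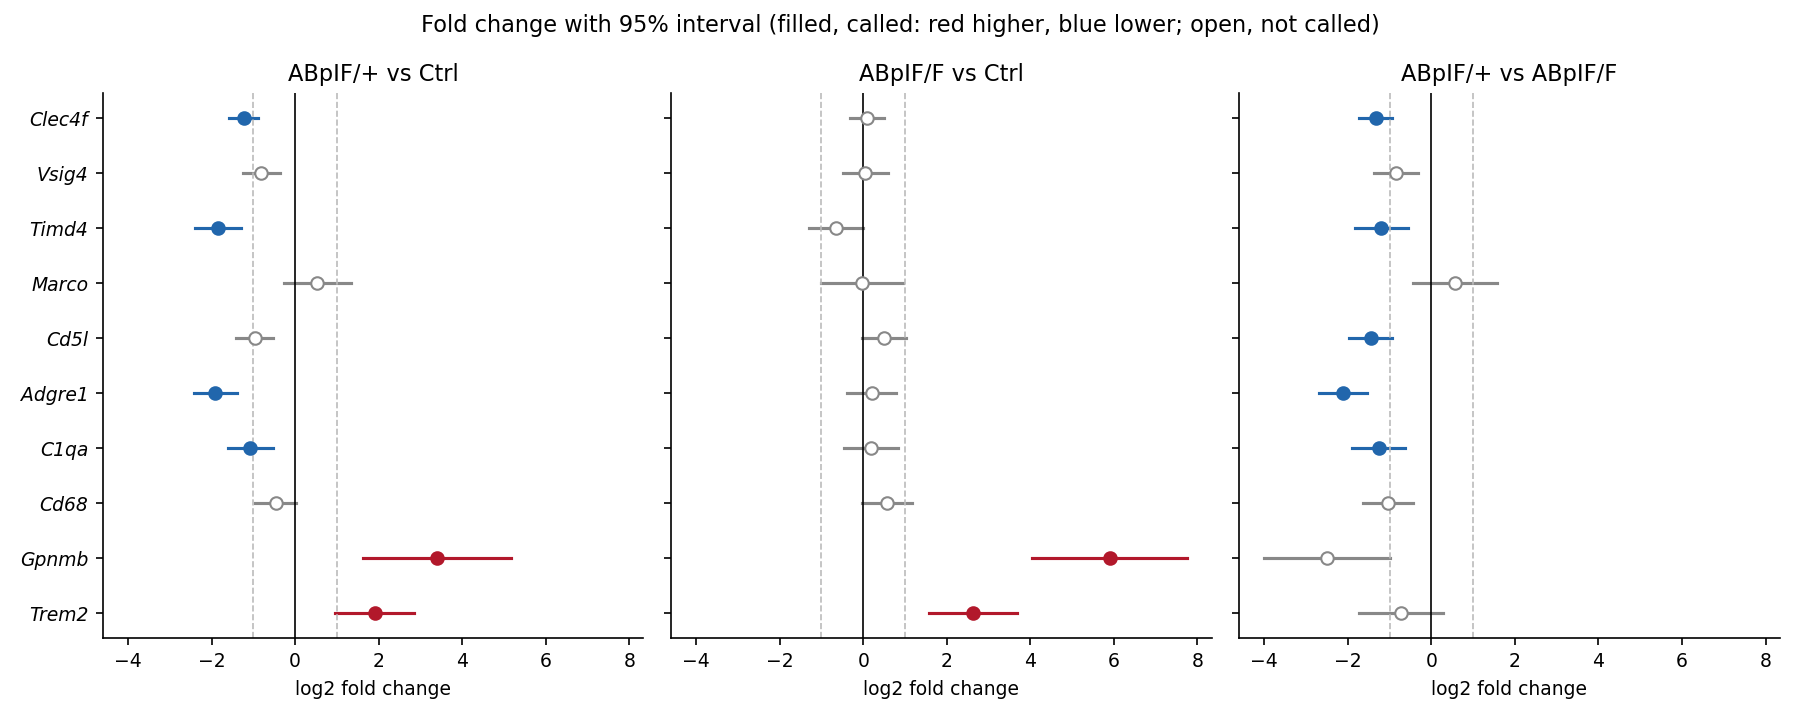
Log2 fold change of the 10 macrophage genes in 3 comparisons (the first group named minus the second) with 95% intervals from the edgeR fit; filled points were called higher (red) or lower (blue) and open points were not called, and the dashed lines mark a 2-fold change. Gpnmb and Trem2 lie to the right in both comparisons with Ctrl, while Clec4f, Timd4, Adgre1 and C1qa lie to the left in ABpIF/+ vs Ctrl and near 0 or within the dashed lines in ABpIF/F vs Ctrl.

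The third comparison, ABpIF/+ vs ABpIF/F, sets the groups with activated *Braf* side by side, where they differ in the second floxed *Icmt* allele. *Clec4f*, *Timd4*, *Cd5l*, *Adgre1* and *C1qa* were lower in ABpIF/+ mice. These 5 of 10 genes stand against 7.24% of all 27179 genes called. Of all 27179 genes, 5.49% were called lower (1491 genes) and 1.76% higher (478 genes). No gene was called higher by edgeR, none reached an unadjusted p under 0.05 in that direction, and DESeq2 also called 0 higher. Of the 5 called genes *Adgre1* differed most, at −2.11 on the log2 scale (SE 0.28, 4.33-fold lower in ABpIF/+, edgeR adjusted p = 4.85e-05), followed by *Cd5l* at −1.46 (SE 0.25, edgeR adjusted p = 0.000404) and *Clec4f* at −1.33 (SE 0.19, edgeR adjusted p = 4.34e-05). For these 3 genes and for *Timd4* the groups did not overlap. The share of all genes without overlap was not counted in any of the comparisons.

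*C1qa* was at −1.26 (SE 0.30, edgeR adjusted p = 0.00703) and *Timd4* at −1.20 (SE 0.30, edgeR adjusted p = 0.00769), both close to the limit of 0.01. *C1qa* lost its call without malpa459, malpa462, BG175, BG31, BG40, BG38 or BG90, with values from −1.26 to −0.93 and edgeR adjusted p from 0.0104 to 0.0745. *Timd4* lost it without BG3, malpa454, malpa458, malpa459, malpa462, BG31, BG55 or BG90, with values from −1.20 to −0.78 and edgeR adjusted p of up to 0.123, the highest without BG90. Without malpa459, malpa462, BG31 or BG90, 3 of the 10 genes were called in place of 5.

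*Vsig4* at −0.85 (edgeR adjusted p = 0.0227) and *Cd68* at −1.04 (edgeR adjusted p = 0.0132) missed the threshold. *Gpnmb* was at −2.50 (95% interval −4.01 to −0.98, edgeR adjusted p = 0.0227), lower in ABpIF/+ than in ABpIF/F mice on average, with ABpIF/+ mouse BG55 at 3.96 CPM inside the ABpIF/F range. It was called without BG55 (−3.25, edgeR adjusted p = 0.00134) and was at −1.35 (edgeR adjusted p = 0.292) without BG38. *Trem2* was at −0.73 with an interval of −1.74 to 0.28 and *Marco* at 0.56 with an interval of −0.43 to 1.56.

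No ABpIF/F mouse shared its clock gene score with any ABpIF/+ mouse, so that genotype and clock score cannot be told apart in this comparison. With the score as a covariate 267 of all 27179 genes were called in place of 1969, and 0 of the 10 genes. The log2 fold changes were then −2.04 for *Adgre1* (edgeR adjusted p = 0.0428), −1.21 for *Cd5l* (0.169 by the same test), −0.96 for *Clec4f* (0.120), −0.63 for *C1qa* (0.643) and −0.57 for *Timd4* (0.717). In ABpIF/+ vs Ctrl the same covariate left 6 of the 10 genes and 2727 of all genes called.

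The counts of the other genes per 100 counts of *Clec4f* in the same mouse show which of them moved apart from this Kupffer cell marker. The ratio carries the counting error of both genes and was not tested. *Marco* ranged over 5.99, 8.95 and 11.1 counts per 100 *Clec4f* counts (lowest, median, highest) in Ctrl, over 15.9, 26.2 and 54.6 in ABpIF/+ mice, and was 2.99, 7.91 and 10.9 in the ABpIF/F mice. Every ABpIF/+ mouse thus had more *Marco* relative to *Clec4f* than any other mouse. *Timd4* went the other way, from 5.58, 6.91 and 7.67 per 100 in Ctrl to 2.72, 4.32 and 6.00 in ABpIF/+ mice, and was 2.37 in BG38, 4.99 in BG183 and 5.23 in BG90. All ABpIF/F mice lay below the lowest Ctrl mouse in this ratio, including those whose *Clec4f* level was above the Ctrl range.

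*Adgre1* ranged over 10.1, 14.1 and 17.6 counts per 100 *Clec4f* counts in Ctrl and over 6.25, 8.57 and 9.77 in ABpIF/+ mice, with 12.1, 12.7 and 18.8 in ABpIF/F mice. *Cd68* ranged over 6.93, 7.52 and 9.04 in Ctrl and over 9.58, 11.2 and 18.8 in ABpIF/+ mice, with 8.82, 9.14 and 12.8 in ABpIF/F mice. The general markers F4/80 and CD68 thus parted in ABpIF/+ livers, one lower and one higher relative to *Clec4f* than in any Ctrl liver. *C1qa* overlapped between all groups, with medians of 33.8, 38.7 and 33.2.

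*Trem2* ranged over 0.177, 0.393 and 0.468 counts per 100 *Clec4f* counts in Ctrl, over 1.61, 2.47 and 6.71 in ABpIF/+ mice, and was 0.911, 1.61 and 3.32 in ABpIF/F mice. *Gpnmb* ranged over 0, 0.0810 and 0.216 in Ctrl, over 0.474, 1.63 and 7.12 in ABpIF/+ mice, and was 1.72, 4.37 and 9.48 in ABpIF/F mice. In both genes no Ctrl mouse reached a mouse of the other groups, and the ABpIF/+ and ABpIF/F ranges overlapped.

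**Figure D3:**
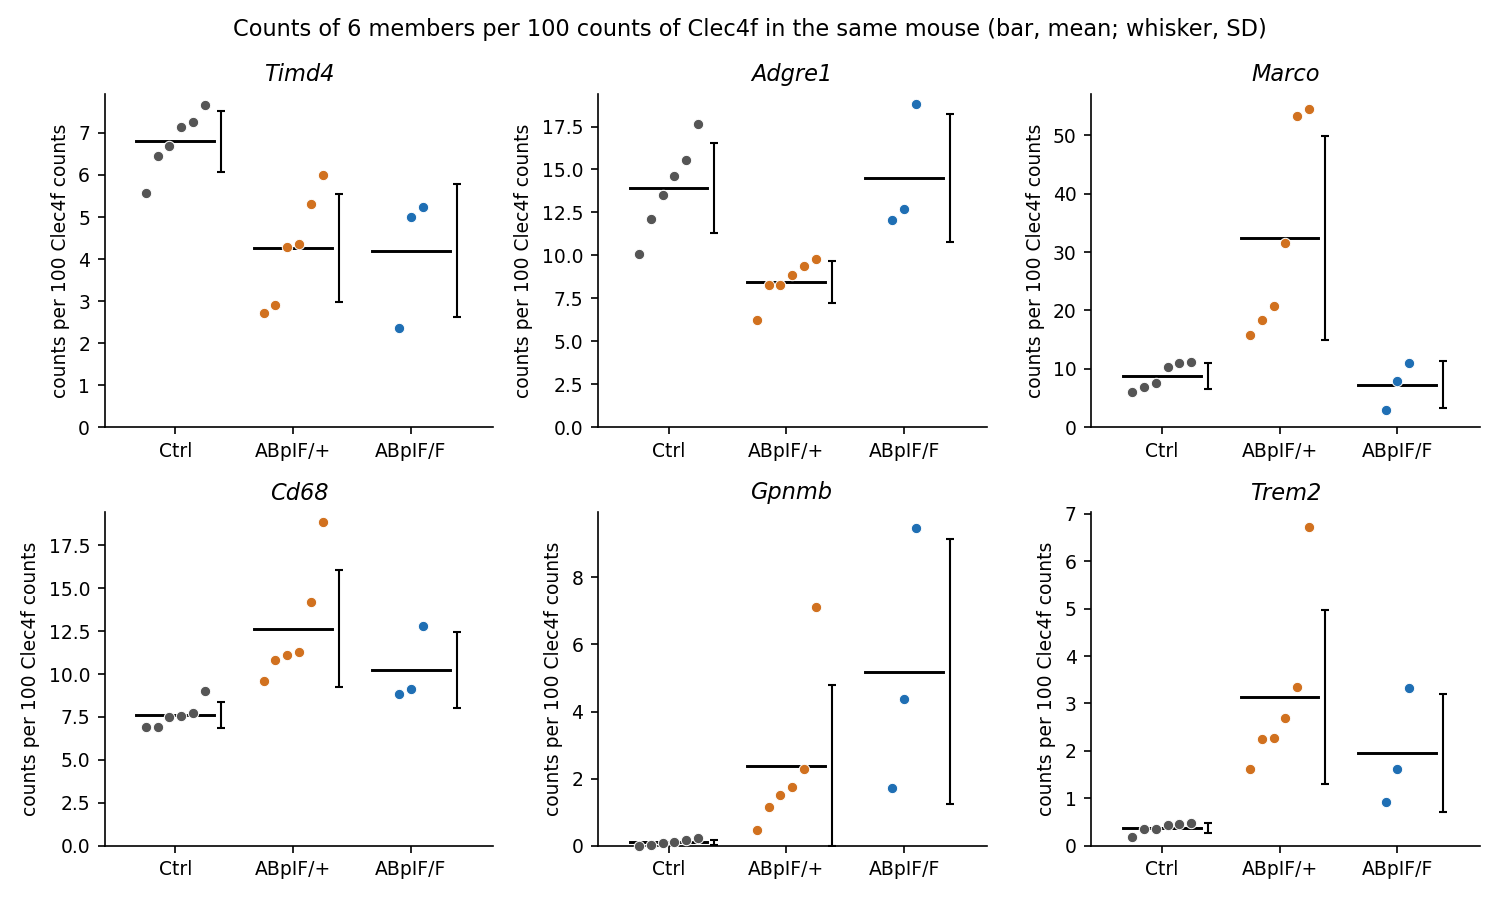
Counts of 6 macrophage genes per 100 counts of Clec4f in the same liver (linear axes from 0), with 1 point per mouse, a bar at the group mean and a whisker of 1 SD that stops at 0. Marco is higher in all 6 ABpIF/+ mice (15.9 to 54.6) than in all others (at most 11.1), Timd4 is lower in most mice with activated Braf, and Gpnmb and Trem2 are above all Ctrl mice in both groups.

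Levels of different genes can be compared only per length of transcript. On this scale (CPM per kilobase of exon, group means) *Cd5l* at 52.3 ± 8.63 (SD, n = 6) and *Clec4f* at 52.1 ± 6.97 led in Ctrl livers with overlapping ranges, followed by *C1qa* at 43.2 ± 10.7, whose range overlapped both, and *Vsig4* at 19.9 ± 1.73, which stood apart from its neighbours. *Cd68* at 7.74 ± 0.792, *Marco* at 5.85 ± 1.56, *Adgre1* at 5.49 ± 1.14 and *Timd4* at 4.01 ± 0.574 came next, each with a range that overlapped its neighbour's. *Trem2* at 0.0957 ± 0.0277 and *Gpnmb* at 0.0190 ± 0.0181 were below all of these, and their own ranges met. In ABpIF/+ mice *Marco* at 8.45 ± 3.05 stood above *Cd68* at 5.59 ± 2.09, with overlapping ranges. In ABpIF/F mice *Gpnmb* at 1.13 ± 1.07 stood above *Trem2* at 0.592 ± 0.468, the reverse of the Ctrl order, again with overlapping ranges. The exon lengths join all annotated transcripts of a gene, which lowers the values per kilobase of *Gpnmb* (6514 bases) and *Trem2* (4946 bases) if shorter transcripts prevail.

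The windows before the annotated starts of 5 of these genes are shown because these genes differed in pattern: in ABpIF/+ livers *Cd5l* and *Timd4* lay below Ctrl with no overlap, *Marco* overlapped Ctrl, and *Gpnmb* and *Trem2* were called higher. The sequences are the 150 bases before the start (RefSeq, GRCm38.p6), 5′ to 3′ on the strand of the gene. Capitals mark matches, on either strand, to GAGGAA (core of sites bound by the macrophage factor PU.1), TGANTCA (AP-1), TGCTGA (core of sites bound by MAF factors), or CACGTG and CATGTG (E-box and M-box cores used by MITF and TFE factors, which control lysosomal genes). The MAF core can share its last 3 letters with an AP-1 site, and no matches overlapped in these windows.
Cd5l, chr3:87357731-87357880, plus strand: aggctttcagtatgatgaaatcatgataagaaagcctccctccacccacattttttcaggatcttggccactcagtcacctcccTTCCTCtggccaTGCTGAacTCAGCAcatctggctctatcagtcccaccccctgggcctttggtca
Timd4, chr11:46810649-46810798, plus strand: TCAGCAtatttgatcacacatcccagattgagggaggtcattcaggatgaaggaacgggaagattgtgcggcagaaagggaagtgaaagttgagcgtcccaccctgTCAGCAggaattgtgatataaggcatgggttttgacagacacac
Marco, chr1:120505025-120505174, minus strand: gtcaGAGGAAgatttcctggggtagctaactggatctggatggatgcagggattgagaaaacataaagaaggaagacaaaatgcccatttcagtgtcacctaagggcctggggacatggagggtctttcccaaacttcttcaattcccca
Gpnmb, chr6:49036368-49036517, plus strand: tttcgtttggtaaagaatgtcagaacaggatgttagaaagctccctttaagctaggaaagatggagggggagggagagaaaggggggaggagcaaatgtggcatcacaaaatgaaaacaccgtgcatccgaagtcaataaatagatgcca
Trem2, chr17:48346251-48346400, plus strand: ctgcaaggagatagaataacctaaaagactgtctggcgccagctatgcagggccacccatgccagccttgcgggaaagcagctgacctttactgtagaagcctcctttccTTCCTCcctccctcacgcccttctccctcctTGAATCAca

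In the 250 bases before the start, searched in the 8 genes with an entry (all but *Adgre1* and *C1qa*), the PU.1 core was found in 5, namely *Cd5l*, *Cd68*, *Marco*, *Trem2* and *Vsig4*, and in 23.3% of 32817 promoters of the genome. MAF cores were found in *Cd5l*, *Clec4f* and *Timd4*, which makes 3 of 8 against 16.1%. In *Cd5l* a pair of them faces each other, as the capitals show, and *Timd4* holds 2. AP-1 sites were found in *Cd68* and *Trem2*, 2 of 8 against 6.75%. The E-box core was in 0 of the 8 against 6.02%, and the M-box core only in *Timd4*, against 12.3%. The window of *Gpnmb* held none of the 5 motifs. These are matches of letters in a few short windows and no test was made on them. The RNA of the factors themselves was measured too. *Spi1*, which encodes PU.1, was at 6.33 ± 0.901 CPM in Ctrl, 3.49 ± 0.919 in ABpIF/+ and 10.5 ± 5.47 in ABpIF/F mice and was called only in ABpIF/+ vs ABpIF/F (−1.58, edgeR adjusted p = 0.000196). *Maf* was at 29.3 ± 4.56, 15.8 ± 3.75 and 31.1 ± 4.23 CPM, with −0.89 in ABpIF/+ vs Ctrl (edgeR adjusted p = 5.06e-05), less than 2-fold and so not called. *Spi1* and *Maf* were chosen for these sentences after their values were seen.

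None of the 10 genes overlaps another annotated gene on GRCm38 (GENCODE M21), so their counts are not shared with an antisense or nested neighbour. *Clec4f* (Entrez 51811) lies at chr6:83644542-83656187 and *Gpnmb* (Entrez 93695) on the same chromosome at chr6:49036546-49070929. *Adgre1* (Entrez 13733) at chr17:57358691-57483527 and *Trem2* (Entrez 83433) at chr17:48346401-48354147 also share a chromosome, as do *Timd4* (Entrez 276891) at chr11:46810800-46844332 and *Cd68* (Entrez 12514) at chr11:69664213-69666153. *Marco* (Entrez 17167) is at chr1:120474538-120505024, *Cd5l* (Entrez 11801) at chr3:87357881-87371073, *C1qa* (Entrez 12259) at chr4:136895917-136898803 and *Vsig4* (Entrez 278180) at chrX:96247203-96293438.

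Over the 15 mice, the genes with the pattern most like that of *Clec4f* were *Cd300ld*, *Ifitm1*, *Csf1r*, *Sdc3* and *Cd5l*, among 12210 genes compared. Likeness was the root mean square difference of mean-centred log2 CPM, which was 0.192 for *Cd300ld* and 0.218 for *Cd5l*. For *Trem2* the nearest gene was *Lilrb4b* at 0.503, followed by *Ift57*, *Pik3ip1*, *Fgfr1* and *Gdpd1* (0.639). For *Gpnmb* the nearest were *Ddr1* at 1.04, *Tox2*, *Cd200l1*, *Inava* and *Fhl3* (1.16). The distances around *Gpnmb* are more than 5 times those around *Clec4f*. Such a distance grows with the spread of the gene itself over the mice. *Gpnmb* ran from −3.84 to 3.95 log2 CPM and *Clec4f* from 5.26 to 7.35. The 2 sets of distances therefore do not show which gene was followed more closely.

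The wider lists of macrophage genes were not uniform. Their counts stand beside the shares called among all genes that passed 1 CPM. These were 8.21% higher and 9.39% lower in ABpIF/+ vs Ctrl, and 7.53% and 5.04% in ABpIF/F vs Ctrl. In ABpIF/+ vs ABpIF/F 3.72% were higher and 8.5% lower. Of 10 other Kupffer cell genes, 3 fell and 0 rose in ABpIF/+ vs Ctrl, and the median of the list was −0.19 on the log2 scale. *Folr2*, a folate receptor of resident macrophages, went from 14.0 ± 2.31 CPM in Ctrl to 2.23 ± 1.06 in ABpIF/+ mice (−2.64, edgeR adjusted p = 9.07e-07) and was 9.31 ± 3.85 in ABpIF/F mice. *Siglec1* (CD169) went from 13.7 ± 3.57 to 3.17 ± 0.975 CPM (−2.11, edgeR adjusted p = 1.98e-05) and *Fcna*, ficolin A, from 45.7 ± 8.30 to 12.0 ± 4.14 CPM (−1.93, edgeR adjusted p = 3.77e-06). *Clec1b*, *Cd163*, *Slc40a1*, *Hmox1*, *Id3*, *Spic* and *Nr1h3* were not called, and *Slc40a1*, *Hmox1*, *Id3* and *Nr1h3* are also made by hepatocytes or endothelial cells. *Fcna* was the 1 gene of these 10 called lower in ABpIF/F vs Ctrl (−1.10, edgeR adjusted p = 0.00906), while *Nr1h3* was at −0.51 (edgeR adjusted p = 0.0130) with no overlap and was not called. Both *Siglec1* (−2.64) and *Folr2* (−2.05) were called lower in ABpIF/+ than in ABpIF/F mice. For the directions in which edgeR called 0 of the 10 genes, DESeq2 called 1 higher in ABpIF/+ vs Ctrl, 1 higher in ABpIF/F vs Ctrl and 0 higher in ABpIF/+ vs ABpIF/F, and 2, 2 and 0 genes were higher at an unadjusted p under 0.05.

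Of 14 other genes of lipid-associated macrophages, 4 rose and 1 fell in ABpIF/+ vs Ctrl, and 5 rose and 0 fell in ABpIF/F vs Ctrl, where 1 gene was lower at an unadjusted p under 0.05 and DESeq2 called 0 lower. The largest changes were in *Lpl*, lipoprotein lipase, at 13.1 ± 3.57 CPM in Ctrl, 440.6 ± 29.2 in ABpIF/+ and 355 ± 166 in ABpIF/F mice, and in *Cd63*, a tetraspanin of late endosomes, at 4.59 ± 0.965, 127 ± 28.5 and 111 ± 17.0 CPM. Of the list, *Cd63*, *Cd9*, *Spp1*, *Lgals3*, *Ctsb*, *Ctsd* and *Lipa* are known to be made by hepatocytes or bile duct cells too. Whole tissue does not show which cells made the added *Lpl* or *Cd63* RNA, and this was not tested. *Mmp12*, a macrophage elastase, rose in ABpIF/+ mice (3.18, edgeR adjusted p = 0.00970), close to the limit of 0.01. It ranged over 0.658, 2.14 and 13.8 CPM (lowest, median, highest) in ABpIF/+ mice. In Ctrl it ranged over 0.0820, 0.320 and 1.02 CPM, so the groups overlapped. *Spp1*, osteopontin, rose only in ABpIF/F vs Ctrl by this threshold (3.91, edgeR adjusted p = 0.000375) and was higher there than in ABpIF/+ mice (−3.30 in ABpIF/+ vs ABpIF/F, edgeR adjusted p = 0.00138). *Itgax* (CD11c) at −2.39 and *Capg* at −1.21 were also lower in ABpIF/+ than in ABpIF/F mice, and 0 genes of the list were higher there by edgeR, by DESeq2 or at an unadjusted p under 0.05.

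Of 15 other genes of macrophages in general, 5 fell and 1 rose in ABpIF/+ vs Ctrl, and 11 were lower and 0 higher in ABpIF/+ than in ABpIF/F mice. *Csf1r*, the receptor for macrophage colony stimulating factor, was at 58.5 ± 8.94 CPM in Ctrl, 23.9 ± 4.99 in ABpIF/+ and 79.0 ± 33.4 in ABpIF/F mice (−1.29 in ABpIF/+ vs Ctrl, edgeR adjusted p = 2.36e-05). *Aif1* (IBA1) fell more, from 4.48 ± 1.27 to 0.861 ± 0.240 CPM (−2.37, edgeR adjusted p = 5.74e-07). *Mpeg1*, perforin-2, was the 1 gene of the list that rose, from 54.0 ± 8.20 CPM in Ctrl to 156 ± 26.5 in ABpIF/+ mice (1.53, edgeR adjusted p = 1.70e-06) and 426 ± 184 in ABpIF/F mice (2.98, edgeR adjusted p = 4.43e-09). *Fcgr1* (−2.47), *Aif1* (−2.43) and *Cybb* (−2.19) differed most between ABpIF/+ and ABpIF/F mice. Over the 49 genes of these 3 lists and the monocyte list, 6 rose and 10 fell in ABpIF/+ vs Ctrl (median −0.53), 16 rose and 1 fell in ABpIF/F vs Ctrl (median 0.91), and 0 were higher and 25 lower in ABpIF/+ vs ABpIF/F (median −1.45), where no gene was higher at an unadjusted p under 0.05 and DESeq2 called none higher.

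**Figure D4:**
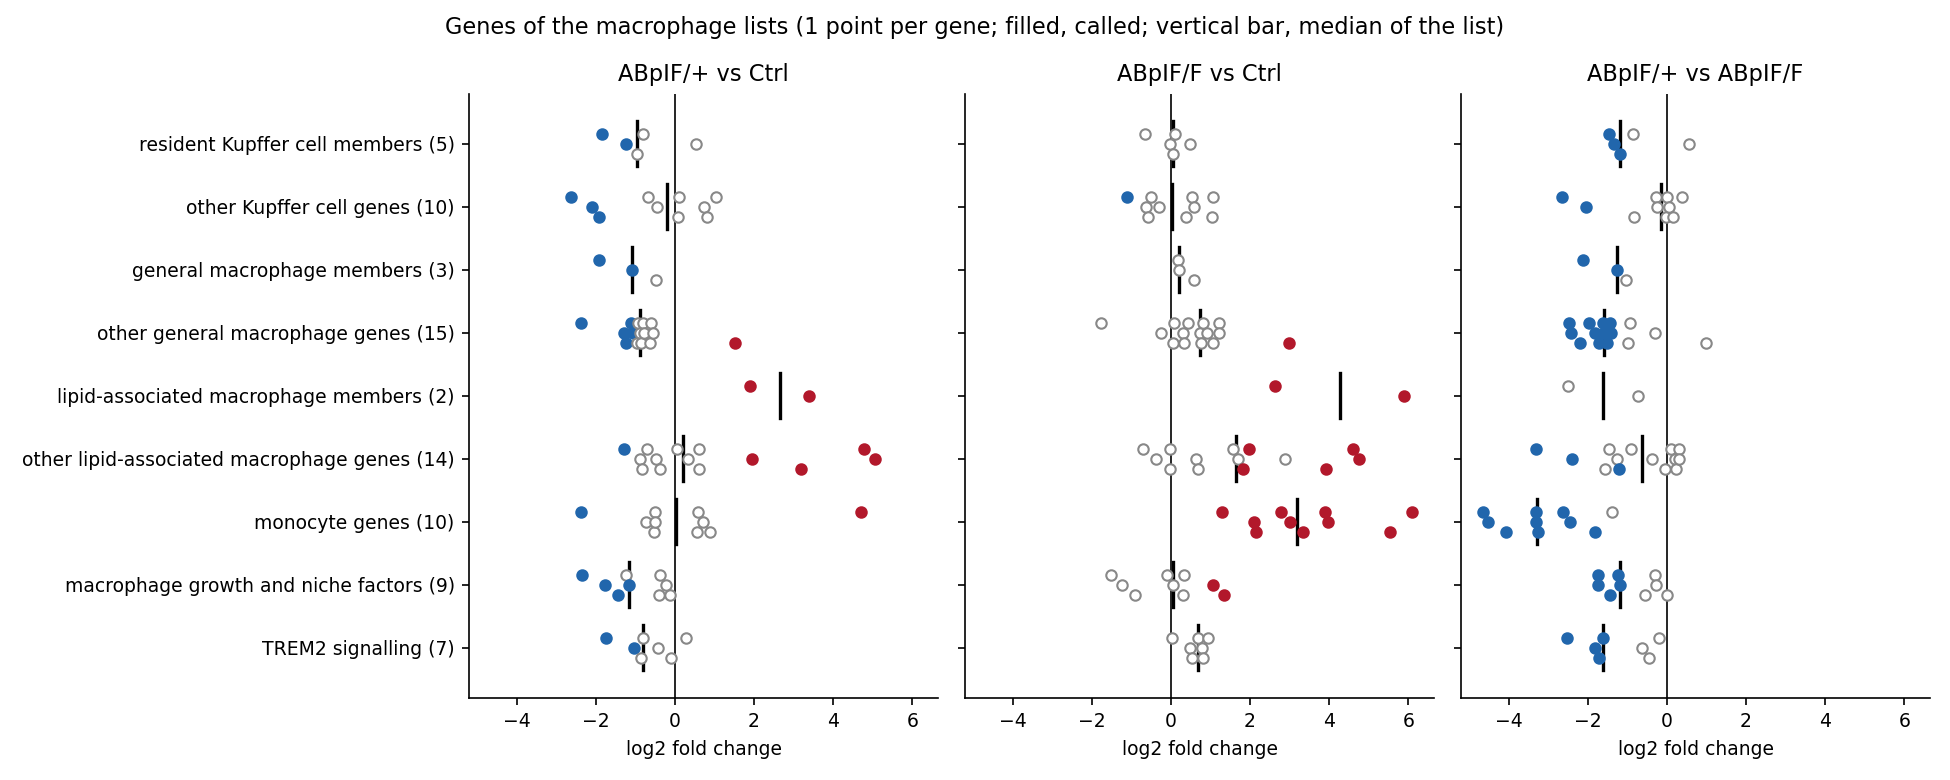
Log2 fold change of each gene of 9 macrophage-related lists in 3 comparisons (first group minus second); filled points were called higher (red) or lower (blue), open points were not, and a vertical bar marks the median of each list, with the number of genes in parentheses. The median of the monocyte genes is 3.17 in ABpIF/F vs Ctrl and 0.02 in ABpIF/+ vs Ctrl, and the lists of resident and general genes lie to the left in ABpIF/+ vs ABpIF/F.

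The monocyte genes divided the groups with activated *Braf*. In ABpIF/+ vs Ctrl 1 of 10 rose, *Chil3* (4.71, edgeR adjusted p = 0.000324) and the median of the list was 0.02. In ABpIF/F vs Ctrl all 10 rose, with *Chil3* at 6.11, *Vcan* at 5.54 and *F13a1* at 3.96 and a median of 3.17. In ABpIF/+ vs ABpIF/F 9 of 10 were lower, with *Vcan* at −4.66 and *Ccr2* at −4.07. The summed level of the 10 genes was 11.2 to 14.5 CPM in Ctrl, 8.28 to 16.5 CPM in ABpIF/+ mice, and 16.4 in BG183, 63.9 in BG90 and 134 in BG38. Within the ABpIF/F group *Gpnmb*, *Trem2* and the summed monocyte level were all highest in BG38. The part of monocytes in these results was not tested.

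The signalling partners of TREM2 did not rise with it in ABpIF/+ livers. *Tyrobp*, its adaptor, was at 7.64 ± 1.29 CPM in Ctrl, 4.34 ± 1.42 in ABpIF/+ and 13.4 ± 7.64 in ABpIF/F mice, with −0.81 in ABpIF/+ vs Ctrl (edgeR adjusted p = 0.0220, not called), 0.81 in ABpIF/F vs Ctrl (edgeR adjusted p = 0.0670, not called) and −1.63 in ABpIF/+ vs ABpIF/F (edgeR adjusted p = 0.000622). Of the 7 genes of this list 0 rose and 2 fell in ABpIF/+ vs Ctrl, the phospholipase gene *Plcg2* (−1.74, edgeR adjusted p = 0.000886) and *Inpp5d*, which encodes the phosphatase SHIP1 (−1.03, edgeR adjusted p = 0.00319), with no gene higher at an unadjusted p under 0.05 and 0 called higher by DESeq2. In ABpIF/F vs Ctrl 0 of the 7 were called by edgeR or DESeq2, and 4 were higher at an unadjusted p under 0.05. *Plcg2* (−2.53), the kinase gene *Syk* (−1.81), *Inpp5d* (−1.72) and *Tyrobp* were lower in ABpIF/+ than in ABpIF/F mice. Of the 4 MiT/TFE factors *Mitf*, *Tfeb*, *Tfe3* and *Tfec*, 0 were called in the 3 comparisons by edgeR or DESeq2; at an unadjusted p under 0.05, 1 was higher and 1 lower in each comparison with Ctrl and 1 was higher in ABpIF/+ vs ABpIF/F.

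Of 9 growth and niche factor genes 4 fell in ABpIF/+ vs Ctrl and 0 rose, with 0 higher at an unadjusted p under 0.05 and by DESeq2. *Csf1*, the main macrophage growth factor, was at 14.3 ± 2.22 CPM in Ctrl, 6.37 ± 1.70 in ABpIF/+ and 14.9 ± 3.87 in ABpIF/F mice, which gave −1.17 in ABpIF/+ vs Ctrl (edgeR adjusted p = 1.34e-05) and −1.23 in ABpIF/+ vs ABpIF/F (edgeR adjusted p = 0.000140). *Gdf2*, which encodes the stellate cell ligand BMP9, went from 17.8 ± 3.54 CPM in Ctrl to 3.46 ± 1.86 in ABpIF/+ mice (−2.35, edgeR adjusted p = 2.33e-05). *Bmp10* (−1.78, edgeR adjusted p = 0.00635) and *Tgfb1* (−1.44, edgeR adjusted p = 9.20e-05) fell too. In ABpIF/F vs Ctrl the receptor chains *Csf2rb* (1.35) and *Csf2ra* (1.07) rose and 0 genes fell by edgeR or DESeq2, with 2 lower at an unadjusted p under 0.05. *Csf2* had 1 count in all 15 mice together. Among 10 scavenger and engulfment genes *Mfge8*, a bridge between dying cells and phagocytes, rose in ABpIF/+ (2.39, edgeR adjusted p = 4.80e-11) and ABpIF/F mice (2.59, edgeR adjusted p = 2.95e-10) vs Ctrl. *Gas6* (−1.92, edgeR adjusted p = 5.11e-07) and its receptor gene *Axl* (−1.02, edgeR adjusted p = 0.00771) fell in ABpIF/+ vs Ctrl, and *Axl*, *Gas6* and *Msr1* were lower in ABpIF/+ than in ABpIF/F mice (−1.66, −1.51 and −1.47).

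Lists of other cell types differed in how they moved beside the resident genes in ABpIF/+ livers. Of 7 stellate cell and fibroblast genes 6 fell in ABpIF/+ vs Ctrl, and their summed level was 206 to 272 CPM in Ctrl, 58.5 to 124 in ABpIF/+ and 229 to 361 in ABpIF/F mice. Of 7 sinusoidal endothelial genes 1 fell and 4 were lower at an unadjusted p under 0.05, with summed levels of 179.9 to 263, 78.7 to 188 and 206 to 294 CPM. Of 9 lymphocyte genes 3 fell, with summed levels of 3.71 to 5.99, 0.812 to 2.81 and 5.50 to 14.0 CPM, while of 7 dendritic cell genes 3 fell but the summed levels overlapped, at 6.99 to 8.98, 3.87 to 11.6 and 7.32 to 13.8 CPM. No gene of these lists was at 0 in a whole group. A mean of 1 CPM was passed by 0 of the 9 lymphocyte genes and 2 of the 7 dendritic cell genes, so both lists rest on low counts. Their calls stand beside the 5.35% of all 27179 genes called lower in ABpIF/+ vs Ctrl. The median log2 fold change in ABpIF/+ vs Ctrl was −1.84 for the stellate cell list and −0.90 for the endothelial list. It was −1.57 for the lymphocyte list and −1.20 for the dendritic cell list, against −0.97 for the 5 resident genes. Hepatocyte genes summed to 87159 to 116863 CPM in Ctrl, 136586 to 193232 in ABpIF/+ and 104632 to 190032 in ABpIF/F mice, a sum made up mostly of *Alb* (means of 89159 CPM in Ctrl and 153783 in ABpIF/+ mice). Of these 6 genes only *Glul* was called, lower in both comparisons with Ctrl, and at an unadjusted p under 0.05 in ABpIF/+ vs Ctrl 4 were lower (*Ttr*, *Cps1*, *Hal* and *Glul*) and 2 higher (*Alb* and *Hnf4a*). The part of these cells in the fall of *Clec4f*, *Timd4*, *Adgre1* and *C1qa* was not tested.

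Other lists also held genes called in ABpIF/F vs Ctrl. Of 7 neutrophil genes 6 rose in ABpIF/F vs Ctrl. *Ly6g*, the gene not called, was at 0 counts in all Ctrl mice and at 0 to 12 counts in ABpIF/F mice. The summed neutrophil level of BG183, 4.96 CPM, lay within the ABpIF/+ range of 2.18 to 9.47 CPM. In ABpIF/+ vs Ctrl edgeR called 0 of the 7 genes. There 3 were higher and 1 lower at an unadjusted p under 0.05, and DESeq2 called 1 in each direction. Of 6 bile duct genes 4 rose in ABpIF/F vs Ctrl and 1 rose and 1 fell in ABpIF/+ vs Ctrl, with summed levels of 6.64 to 8.86 CPM in Ctrl, 14.4 to 28.0 in ABpIF/+ and 31.4 to 74.4 in ABpIF/F mice. Of the 13 clock genes 1 rose in ABpIF/+ vs Ctrl, 4 fell in ABpIF/F vs Ctrl, and 4 were higher and 1 lower in ABpIF/+ vs ABpIF/F. Their part in the levels of *Gpnmb* and *Trem2* was not tested.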

How the data were processed

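Total RNA was isolated from frozen livers with Trizol, and stranded mRNA libraries were sequenced as paired-end reads. Per the labels and methods, the authors aligned the reads to mm10 with HISAT2 and counted them per gene with featureCounts 2.0.8 (version from the submitters' processing notes); the annotation and strand setting are not given in the sources used here. The deposited values were raw counts per gene, in 15 columns of 1 mouse each, although 23 samples are listed and 8 mice are named by 2 of them. A second deposited table supplied the gene symbols. It repeated the counts of 10 mice (0 differing values), and 5 further count columns with bare numbers as headers were not used, nor were its columns of the authors' own fold changes, p-values and FDR. Strand setting and annotation could change counts of overlapping genes.

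The software was R 4.3.3 and edgeR 4.0.16 (TMM scaling, robust dispersions, the older quasi-likelihood form, 1 fit with 3 groups, all genes kept) and DESeq2 1.42.0 as an alternative. P-values were adjusted by Benjamini-Hochberg over 27179 genes, and the call required an adjusted p under 0.01 and at least a 2-fold change. Log2 CPM used a prior count of 2. Intervals of fold changes are 95% intervals of the difference between groups, estimated from the spread between mice. They do not give the range of single mice. Median depth was 26159031.5 counts in Ctrl, 29647774.5 in ABpIF/+ and 29731850 in ABpIF/F mice, and 1319 genes without a symbol stayed in the fit. The script was tested on simulated data. The 10 genes, the gene lists and the tests were chosen with earlier results of these data known. Named genes were the 10 members, up to 3 called genes per list and comparison with the largest change and at least 1 CPM, and *C1qb*, *C1qc*, *Tyrobp*, *Csf1* and *Csf1r*. Some genes that this rule would name are not reported here. Promoters came from RefSeq (GRCm38.p6) and positions from GENCODE M21 (GRCm38). Alternatives were other scalings, filters, thresholds, fits and covariates, and leaving out each mouse. Library totals and upper-quartile factors were chosen after seeing the data.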

Additional observations from a re-analysis of the deposited data

Results flagged for a closer look

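*Gpnmb* in the ABpIF/+ mouse BG55, at 3.96 CPM, lay far from the other 5 mice of its group, which were between 0.288 and 1.54 CPM. Its gap to the nearest mouse was 0.660 of the range of the group, above Dixon's 95% limit for 6 samples. Of 20 groups tested, 1 was marked in this way, and chance marks about 1 in 20. *Trem2* was also highest in BG55 within its group (3.73 CPM), without passing the limit.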

How the results depend on the processing

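Counts of called genes kept within 1.5 times of the reported value with RLE, library-total and upper-quartile scaling, filterByExpr, the edgeR 4 form, no robust estimation and DESeq2 for the 10 members and the 49 other macrophage genes in the 3 comparisons. Requiring a log2 fold change of 2 left 1 of the 10 members in ABpIF/+ vs Ctrl and 1 in ABpIF/+ vs ABpIF/F, and 8 and 15 of the 49 genes. An adjusted p under 0.05 with any fold change gave 8 members in ABpIF/+ vs ABpIF/F and, of the 49 genes, 26 in ABpIF/+ vs Ctrl and 26 in ABpIF/F vs Ctrl. Fitting only the groups compared left 3 members in ABpIF/+ vs ABpIF/F. The strain label as a covariate left 2 and 0 members, and 7 and 3 of the 49 genes, in ABpIF/+ vs Ctrl and ABpIF/F vs Ctrl. Of all genes it left 1357 and 1148 called in the same comparisons. The clock score left 0 members and 3 of the 49 genes in ABpIF/F vs Ctrl, and 0 and 0 in ABpIF/+ vs ABpIF/F. Of all genes this score left 602 and 267 called in the same comparisons. Leaving out 1 mouse gave 4 to 7 members in ABpIF/+ vs Ctrl, 1 (without BG38) to 2 in ABpIF/F vs Ctrl and 3 to 7 in ABpIF/+ vs ABpIF/F, and 13 to 16, 12 (without BG38) to 25 (without BG183) and 18 to 27 of the 49 genes. The causes were not tested.

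Signs reversed only for values that were not called. In ABpIF/F vs Ctrl these were, with the strain covariate, *C1qa* −0.23, *Clec4f* −0.15, *Marco* 0.27 and *Vsig4* −0.088, with the clock score *C1qa* −0.38, *Clec4f* −0.24 and *Vsig4* −0.22, and with filterByExpr *Vsig4* −0.00736. Leaving out 1 mouse gave *Adgre1* −0.22 (without BG38) to 0.49, *C1qa* −0.14 (without BG38) to 0.47, *Clec4f* −0.046 (without BG38) to 0.32, *Marco* −0.53 to 0.43 and *Vsig4* −0.16 to 0.30, and in ABpIF/+ vs ABpIF/F *Trem2* −1.17 to 0.072 (without BG38). Of 810 values of the 10 members, 713 kept sign and call, 53 lost the call, 25 gained it and 19 changed sign. Scaling by library totals moved the median of genes with at least 1 CPM from 0.017 to −0.16 in ABpIF/+ vs Ctrl and from 0.038 to −0.15 in ABpIF/+ vs ABpIF/F, and the split of all calls from 1275 higher and 1454 lower to 978 and 1812, and from 478 and 1491 to 286 and 1891. *Gpnmb* and *Trem2* rest on at most 8 and 17 counts in a Ctrl mouse. No paired analysis was possible because the table has 1 column per mouse and the numbers after mouse names mark samples of the same mouse. The other deposited table was not refitted, since its 10 comparable columns hold the same counts.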
